A study of Drosophila melanogaster with 16 samples.

Results

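The comparison described here is between fat body dissected together with the ovaries and fat body alone in heterozygous female larvae of Drosophila melanogaster, so that what differs by design is the presence of the larval ovary. It holds 8 of the 16 libraries of the series, 4 per group, and their titles put them in the groups. Both groups carry the same genotype, dLmx1a delta1 / TM3-GFP: 1 copy of a knock-out allele of dLmx1a over a balancer chromosome marked with GFP, and the deposited columns call these heterozygotes WT. Animals were taken at the transition from the last larval stage to the prepupa, total RNA was prepared, and poly(A) or strand selection is not stated here. The heterozygotes are thus not wild type, and libraries with both tissues hold ovary and fat body in a proportion that is not given. Whether the 4 libraries of a group came from separate animals or pools is not given either, so the p-values below measure the spread between these libraries. A gene was kept if its normalised counts averaged 10 or more across the 8 libraries, which left 7794 of the 16727 genes in the table, and 3122 genes had no read in any of the 8.

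The ovary of a late third-stage larva is a small organ embedded in the fat body. Its germ cells lie among somatic intermingled cells, while at the anterior side somatic cells stack into terminal filaments, with cap cells at their base, which will head the ovarioles and hold the germline stem cells of the adult. Germ cells guard their genome with PIWI-interacting RNAs (piRNAs), short RNAs that guide the silencing of transposons, and germ cells and somatic cells both divide at this stage. The fat body around them is a polyploid, non-dividing tissue that stores proteins, lipid and glycogen and makes most proteins of the blood. In RNA from whole tissue, fewer cells of a type and less RNA per cell cannot be told apart.

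Between 21483771 and 29741067 reads per library fell on genes. 6 storage genes of the fat body (Fbp1, Fbp2, Lsp1alpha, Lsp1beta, Lsp1gamma and Lsp2) took 52.9% to 57.0% of the counts in the fat body libraries and 49.7% to 51.0% in those with ovaries, so fat body RNA was abundant in both groups, as labelled. The defining germline markers vas, nos and bam and the somatic markers bab2 and tj separated the groups without overlap in the direction of the labels. 3 features of single libraries touch the results below. Fat body replicate 2 had the highest fat body levels of germline, piRNA, meiosis, terminal filament and mitotic genes, fat body replicate 1 had those of replication and nucleolar genes and of the other ovarian somatic genes, and replicate 2 with ovaries had the lowest levels of ovarian genes in its group. The first component of all kept genes held 76.1% of the variance and separated the groups, and the second held 8.43% and was spanned by fat body replicates 1 (38.4) and 2 (-27.3).

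Values are normalised counts, that is reads divided by a size factor of the library, given for replicates 1 to 4 in that order. A difference is the mean of log2(normalised count + 1) with ovaries minus that in fat body, with the standard error of limma, and it understates the change of genes with few reads in the fat body. A gene is called when its limma p, adjusted over all 7794 genes by Benjamini-Hochberg, is under 0.05. A value of 0 in a library allows up to 3 reads, and such limits cover counting error only. Genes were called higher with ovaries in 1531 cases (19.6%) and lower in 1059 cases (13.6%), together 33.2% of the kept genes. At least 1 log2 unit separated the groups for 862 of the higher genes (11.1% of those kept) and for 110 of the lower ones (1.41%). Differences of at least 3 log2 units were found for 358 higher genes and differences of at least 5 for 93, against 8 genes that were lower by at least 3.

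The number of small differences depended on how libraries were scaled. With all libraries scaled to the same total, the median of all genes moved by 0.39 log2 units, from -0.05 to 0.34, and 3669 genes (47.1%) were higher and 102 (1.31%) lower, so that the share of higher genes among the calls went from 59.1% to 97.3%. All 862 genes that were higher by 1 log2 unit or more were also called higher on that scale, and 76 of the 110 lower ones were still called lower. Of these 862 genes, 353 had a fat body mean under 10 and could pass the filter only through the libraries with ovaries. The groups did not overlap for 820 of the 862 and for 84 of the 110, beside 19.9% of all kept genes not overlapping in the higher and 13.1% in the lower direction. The count of lower genes leaned on single libraries and ranged from 530 without replicate 3 with ovaries to 1526 without fat body replicate 1. It was 617 and 572 without fat body replicates 3 and 4, and 653 and 664 without replicates 1 and 4 with ovaries. The count of genes at least 1 log2 unit lower was 173 without fat body replicate 1 and 67 without fat body replicate 4, while that of genes at least 1 log2 unit higher stayed between 787 and 984. The small lower counts of the germline, piRNA, other somatic, Hedgehog, Wnt, Notch, Hox, adherens junction, hemocyte and muscle lists given below, 1 to 4 genes each, moved to between 0 and 7 when single libraries were left out, and the 2 higher glutathione transferase genes moved to 1.

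**Figure D1:**
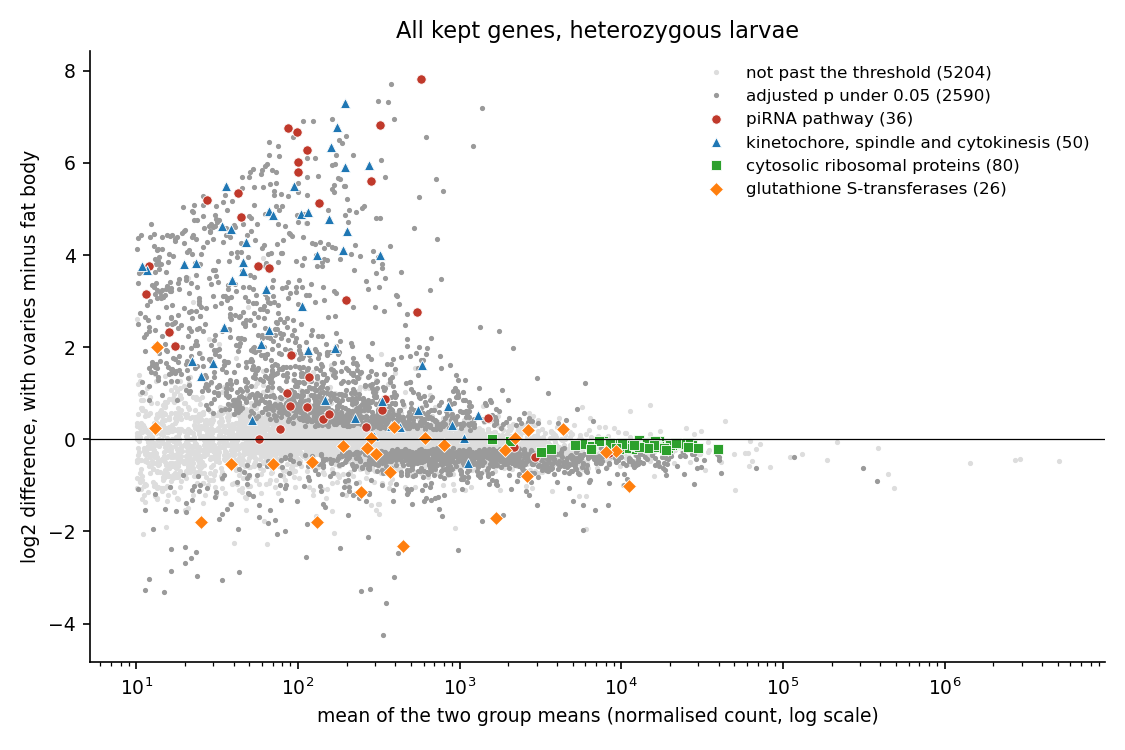
Difference between the groups (log2 difference of normalised counts, with ovaries minus fat body) against mean level for each of the 7794 kept genes, with dark grey for the 2590 called genes and coloured symbols for 4 gene lists. Genes higher with ovaries reach past 7 log2 units and lie mostly below a mean of 1000, the piRNA and mitotic genes are spread over the upper part, and the ribosomal protein genes lie in a tight band just under 0.

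Genes of at least 1 log2 unit higher took 0.724% to 1.05% of all counts with ovaries and 0.145% to 0.216% in fat body alone. The genes with the largest differences mixed germline, somatic and cell division functions. piwi, the nuclear argonaute protein of the piRNA pathway in germ and somatic cells (arm 2L, 10982205 to 10987420, Release 6 assembly), had 0, 54.2, 1.11 and 4.30 normalised counts in fat body and 1157, 895, 1307 and 1229.7 with ovaries. Fat body replicate 2 held most of the fat body signal, and the groups did not overlap. The difference was 7.83 ± 1.05 (SE, limma adjusted p = 0.000682), and it was 8.99 without fat body replicate 2. dec-1, which encodes eggshell proteins made by follicle cells of the adult ovary (arm X, 7867161 to 7873222), had 2.83, 18.4, 1.11 and 0 counts in fat body and 678, 617, 897 and 793 with ovaries, a difference of 7.71 ± 0.77 (SE, limma adjusted p = 0.000147). dLmx1a itself, listed as CG32105 (arm 3L, 12329232 to 12335901), encodes a LIM homeodomain transcription factor. It had 2.83, 23.5, 1.11 and 0 counts in fat body and 578, 518, 723 and 649 with ovaries. Its RNA was thus read in every library with ovaries and was at or near 0 in 3 of the 4 fat body libraries, with a difference of 7.35 ± 0.83 (SE, limma adjusted p = 0.000272). One copy of the gene carries the delta1 allele in all 8 libraries, and how much of the reads each allele gave was not tested.

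Other genes in the top rank are known from other organs. Argk, the arginine kinase that buffers ATP in muscle and other tissues (arm 3L, 9048781 to 9066027), had 10.4, 82.9, 8.91 and 10.7 counts in fat body and 2772, 1949, 3143 and 3076 with ovaries, a difference of 7.20 ± 0.63 (SE, limma adjusted p = 8.77e-05). croc, a forkhead transcription factor of the embryonic head, had 0.943, 20.5, 0 and 0 counts in fat body and 332, 231, 373 and 336 with ovaries. All 4 libraries with ovaries lay above 200 while 3 of the 4 fat body libraries had at most 1 read, and the difference was 6.95 ± 0.89 (SE, limma adjusted p = 0.000534). Mur89F, which encodes a mucin-like protein, reached 345, 228, 463 and 546 counts with ovaries from 1.89, 4.09, 1.11 and 6.45 in fat body (difference 6.59 ± 0.43). rdo, which encodes a membrane protein with leucine-rich repeats, reached 185, 168, 201 and 185 counts from 0, 6.14, 0 and 1.07 (difference 6.56 ± 0.59). Both were past the threshold in limma, with adjusted p of 3.28e-05 and 9.60e-05.

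3 further transcription factors with roles in the embryonic midgut, hindgut or midline were chosen after their values were seen. drm, a zinc finger protein of the odd-skipped family, had 16.04, 99.3, 17.8 and 19.3 counts in fat body and 2241, 1771, 2695 and 2792 with ovaries, a difference of 6.36 ± 0.52 (SE, limma adjusted p = 6.85e-05). bin, the forkhead factor of the visceral mesoderm, had 0, 9.21, 0 and 0 counts in fat body and 151, 119, 171 and 152 with ovaries, a difference of 6.37 ± 0.73 (SE, limma adjusted p = 0.000293). sim, the basic helix-loop-helix factor of the nervous system midline, had 0.943, 7.16, 0 and 0 counts in fat body and 121, 103, 159 and 125 with ovaries, a difference of 5.99 ± 0.64 (SE, limma adjusted p = 0.000199). For each of the 3 the lowest library with ovaries was above the highest fat body library by more than 10 times.

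**Figure D2:**
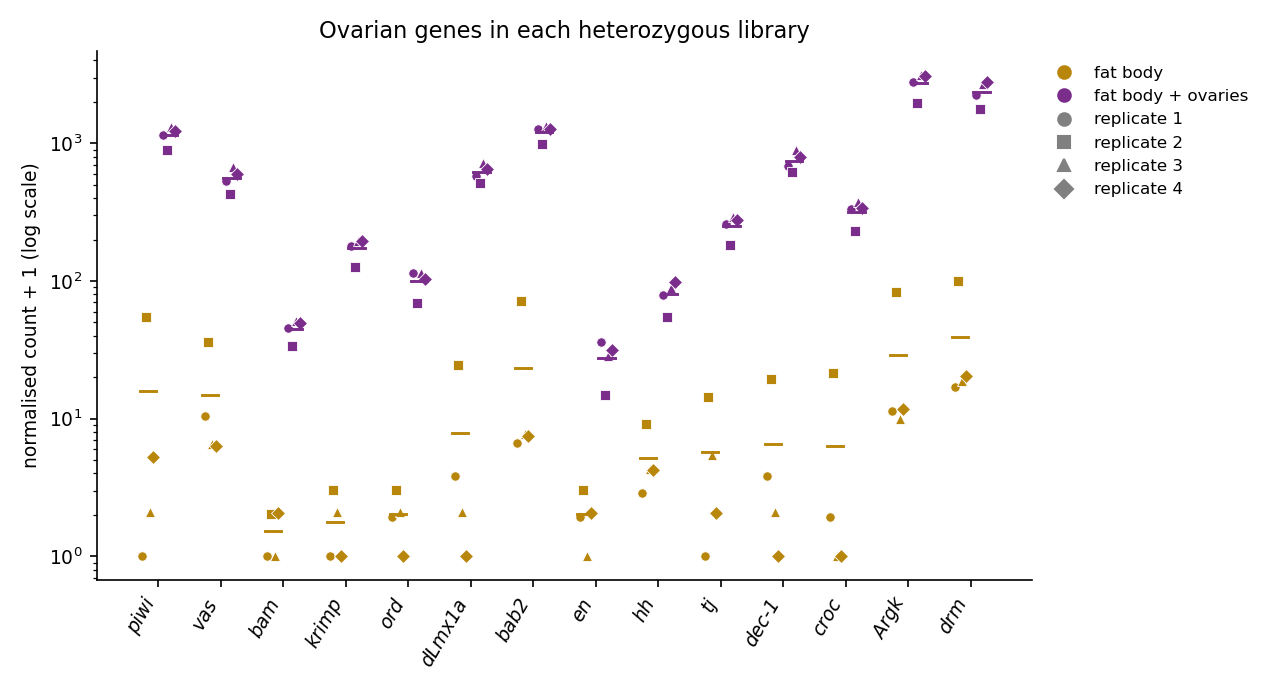
Normalised counts plus 1, on a log scale, of 14 genes in each of the 8 heterozygous libraries (symbols stand for replicates, short lines for group means). The groups do not overlap for any of the 14, and fat body replicate 2 (squares) is the highest fat body library for every gene shown but bam, where replicates 2 and 4 held 1 read each.

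Many genes of germline identity were higher with ovaries. Of 32 kept genes of germline identity and translation, 19 were called higher and 3 lower, beside 19.6% and 13.6% of all genes. Their median difference was 0.66, beside -0.05 over all genes. 10 of the higher ones had a fat body mean under 10. nos, the translational repressor that keeps germ cells in their fate, had 0.943, 9.21, 0 and 3.22 counts in fat body and 87.5, 52.4, 89.7 and 77.1 with ovaries, a difference of 4.65 ± 0.65 (SE, limma adjusted p = 0.000879). ovo, a zinc finger factor needed in female germ cells, had 5.66, 19.4, 3.34 and 3.22 counts in fat body and 206, 176, 240.0 and 216.7 with ovaries, a difference of 4.89 ± 0.47. otu, a deubiquitinase needed for early cyst growth, had 1.89, 7.16, 1.11 and 1.07 counts in fat body and 83.5, 47.3, 75.6 and 69.8 with ovaries, a difference of 4.43 ± 0.47. orb, a translational regulator of the oocyte, had 1.89, 7.16, 2.23 and 1.07 counts in fat body and 89.5, 77.3, 117 and 117 with ovaries, a difference of 4.81 ± 0.42. The limma adjusted p of these 3 lay between 8.49e-05 and 0.000191.

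RNA of a differentiation factor was present at this stage. bam, whose protein starts the differentiation of stem cell daughters, had 0, 1.02, 0 and 1.07 counts in fat body and 44.3, 32.7, 50.7 and 48.7 with ovaries, a difference of 4.96 ± 0.41 (SE, limma adjusted p = 7.24e-05). All 4 libraries with ovaries held at least 30 counts, and no fat body library held more than 1 read. zpg, the innexin of germline gap junctions, went from 0.943, 9.21, 0 and 0 to 139, 118, 181 and 167 counts (difference 6.15 ± 0.69, limma adjusted p = 0.000271). The 10 members that were not called include the RNA-binding or translation factors me31B, tral, bel, stau and exu, which are also used outside the germline. Phf7, a chromatin reader known from male germ cells, had 17.9, 24.6, 7.80 and 7.52 counts in fat body and 84.5, 88.5, 114.6 and 82.7 with ovaries in these females, a difference of 2.75 ± 0.37 (SE, limma adjusted p = 0.000668).

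The piRNA pathway was covered from cluster transcription to silencing. 29 of its 36 kept genes were called higher and 2 lower, beside 19.6% and 13.6% of all genes, with a median of 2.54. Of the higher ones 16 had a fat body mean under 10. For the complex that licenses transcription of the clusters, rhi had 21.1, 22.3, 27.4 and 21.1 counts with ovaries after 0, 2.05, 2.23 and 0 in fat body (difference 3.75 ± 0.53). Its partner del had 78.4, 79.9, 93.003 and 86.3 counts after 0.943, 0, 2.23 and 2.15 (difference 5.34 ± 0.40), and cuff had 23.1, 10.3, 21.6 and 30.3 after 1.89, 4.09, 0 and 1.07 (difference 3.16 ± 0.59). Limma adjusted p of these 3 lay between 4.99e-05 and 0.004. zuc, the nuclease that makes piRNA ends at mitochondria, had 3.77, 0, 0 and 0 counts in fat body and 64.4, 47.3, 56.5 and 47.8 with ovaries, a difference of 5.21 ± 0.56 (SE, limma adjusted p = 0.000202). Its fat body signal lay in replicate 1 alone, unlike most genes of the pathway.

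In the nuage, the granule of germ cells where piRNAs are amplified, the helicase spn-E had 639, 508, 732 and 658 counts with ovaries after 2.83, 26.6, 1.11 and 3.22 in fat body (difference 6.83 ± 0.68). krimp, a Tudor protein that brings the 2 amplifying argonautes together, had 180.0, 126, 194 and 194 counts after 0, 2.05, 1.11 and 0 (difference 6.76 ± 0.41). Of those argonautes, aub rose from 8.49, 15.3, 2.23 and 5.37 to 287, 201, 294 and 273 counts (difference 5.12 ± 0.44), while AGO3, with 27.4, 51.2, 45.7 and 34.4 counts in fat body and 167, 112, 126 and 163 with ovaries, rose by 1.84 ± 0.22. All 4 were past the threshold, with limma adjusted p between 3.15e-05 and 0.000408. AGO3 was read at 27.4 counts or more in every fat body library, including replicates 3 and 4, in which piwi had 1.11 and 4.30.

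Components of the somatic pathway were present too. fs(1)Yb, the organiser of the somatic Yb body, had 0, 12.3, 0 and 0 counts in fat body and 202, 153, 233 and 192 with ovaries, a difference of 6.67 ± 0.80 (SE, limma adjusted p = 0.000376). Its relative SoYb had 2.83, 12.3, 0 and 2.15 counts in fat body and 189, 174, 212 and 215 with ovaries, a difference of 5.80 ± 0.66, and BoYb had 5.66, 8.19, 8.91 and 3.22 counts in fat body and 29.2, 28.4, 30.7 and 24.8 with ovaries, a difference of 2.04 ± 0.32. Both passed the threshold, with limma adjusted p of 0.000272 and 0.00173. armi, the helicase shared by both branches, had a fat body level that is not near 0: 141, 125, 169 and 125 counts, and 1019.8, 755, 1066 and 987 with ovaries, a difference of 2.77 ± 0.14 (SE, limma adjusted p = 2.19e-05). tud, which encodes a scaffold with Tudor domains, and mino, which encodes a mitochondrial acyltransferase, were called lower by 0.29 and 0.38 log2 units but had differences of 0.10 and 0.0134 with equal totals. tud, with a limma adjusted p of 0.0457, had 8716, 8243, 10108 and 9664 counts in fat body and 6861, 8219, 7175 and 7802 with ovaries, and its mean per kilobase of exon was 1040.0 in fat body.

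Genes of meiosis were already read at this larval stage. 14 of 17 kept genes were called higher and none lower, beside 19.6% and 13.6% of all genes. The median was 3.37, and 6 of the higher ones had a fat body mean under 10. For the synaptonemal complex, which zips homologous chromosomes, c(3)G had 19.8, 28.7, 21.2 and 13.97 counts in fat body and 222, 188, 225 and 244 with ovaries (difference 3.37 ± 0.21). cona had 0, 4.09, 0 and 0 counts in fat body and 131, 113, 135 and 147 with ovaries (difference 6.45 ± 0.54), and corolla, listed as CG8316, had 0, 4.09, 1.11 and 0 counts in fat body and 98.6, 96.3, 103 and 121 with ovaries (difference 5.86 ± 0.52). Their limma adjusted p lay between 3.15e-05 and 9.18e-05. For meiotic cohesion, ord had 0.943, 2.05, 1.11 and 0 counts in fat body and 113, 67.9, 113 and 102 with ovaries, a difference of 5.70 ± 0.39 (SE, limma adjusted p = 3.56e-05). sunn, listed as CG32088, had 0.943, 6.14, 0 and 1.07 counts in fat body and 89.5, 78.2, 131 and 121 with ovaries, a difference of 5.49 ± 0.55 (SE, limma adjusted p = 0.000151). The recombinase genes spn-A and spn-B, with the zinc finger gene grau, were the 3 kept members that were not called.

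Several genes that passed the threshold are second copies of a gene that the fat body reads at a high level, and the other copy did not change in the same way. RpS5b, a germline-enriched paralogue of the small ribosomal subunit protein RpS5a, had 2.83, 26.6, 1.11 and 0 counts in fat body and 360.1, 274, 408 and 366 with ovaries, a difference of 6.50 ± 0.87 (SE, limma adjusted p = 0.000654). RpS5a had 17013, 17168, 15617 and 15815 counts in fat body and 17113, 16767, 15532 and 14984 with ovaries, and its difference of -0.03 ± 0.08 was not called. The groups overlapped for RpS5a and lay more than 10 times apart for RpS5b. RpS19b had 9.43, 11.3, 3.34 and 4.30 counts in fat body and 193, 168, 223 and 187 with ovaries (difference 4.71 ± 0.34), and its paralogue RpS19a 11389, 12341, 10546 and 11426 counts in fat body and 10539, 10399.7, 9588 and 9645 with ovaries (difference -0.19 ± 0.08, not called). RpS10a had 1.89, 2.05, 0 and 0 counts in fat body and 39.2, 36.1, 44.8 and 34.0 with ovaries (difference 4.51 ± 0.49), and RpS10b had a difference of -0.13 ± 0.09 (not called). Limma adjusted p were 4.46e-05 for RpS19b and 0.000214 for RpS10a.

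These 3 were the called members among 9 kept paralogues, beside 19.6% of all genes called higher. All 3 had a fat body mean under 10 and could pass the filter only through the libraries with ovaries. With equal totals 7 of the 9 were called higher, beside 47.1% of all genes. Per kilobase of exon, the mean of RpS5b with ovaries was 370.2 and that of RpS5a 11616, so the total stayed dominated by the general copy. None of the 80 general cytosolic ribosomal protein genes was called in limma, in either direction, and their median was -0.11; 64 of them were called higher with equal totals, at a median of 0.28, and DESeq2 called 9 lower and edgeR 0. How the authors counted reads that match both copies is not stated here.

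The same contrast between copies held for other complexes, in pairs chosen after their values were seen. Rpt3R, a relative of the proteasome ATPase Rpt3, had 4.72, 9.21, 5.57 and 11.8 counts in fat body and 31.2, 24.9, 28.2 and 23.9 with ovaries, a difference of 1.74 ± 0.32 (SE, limma adjusted p = 0.0036). It was the only one of 32 kept proteasome genes to be called with all 8 libraries, while without fat body replicate 1 20 were called lower and at equal totals 1 higher. Rpt3 itself had 1953, 2945, 2559 and 2675 counts in fat body and 1996, 2051, 2376 and 2359 with ovaries, with overlapping groups. Pen, the importin alpha 2 of germ cells and dividing cells, had 27.4, 100.3, 25.6 and 22.6 counts in fat body and 1650.4, 1195, 1718 and 1617 with ovaries, a difference of 5.39 ± 0.43 (SE, limma adjusted p = 6.00e-05). Kap-alpha1 had 864, 732, 768 and 801 counts in fat body and 712, 693, 673 and 689 with ovaries, and its difference of -0.19 ± 0.07 was not called. fzy, the activator of the anaphase-promoting complex in mitosis, had 2.83, 24.6, 5.57 and 0 counts in fat body and 319.8, 223, 370.4 and 360.0 with ovaries (difference 5.96 ± 0.83 SE, limma adjusted p = 0.000812). rap, which encodes its counterpart in endocycles, had 411, 267, 289 and 255 counts in fat body and 392.2, 509, 286 and 174 with ovaries, with overlapping groups and a difference of 0.08 ± 0.31. For Polycomb, esc had 17.0, 13.3, 8.91 and 6.45 counts in fat body and 60.3, 61.9, 85.5 and 90.9 with ovaries (difference 2.66 ± 0.30 SE, limma adjusted p = 0.000285), while its paralogue escl had 59.4, 57.3, 57.9 and 35.5 counts in fat body and 76.4, 60.2, 62.3 and 51.4 with ovaries and was not called (difference 0.26 ± 0.21).

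**Figure D3:**
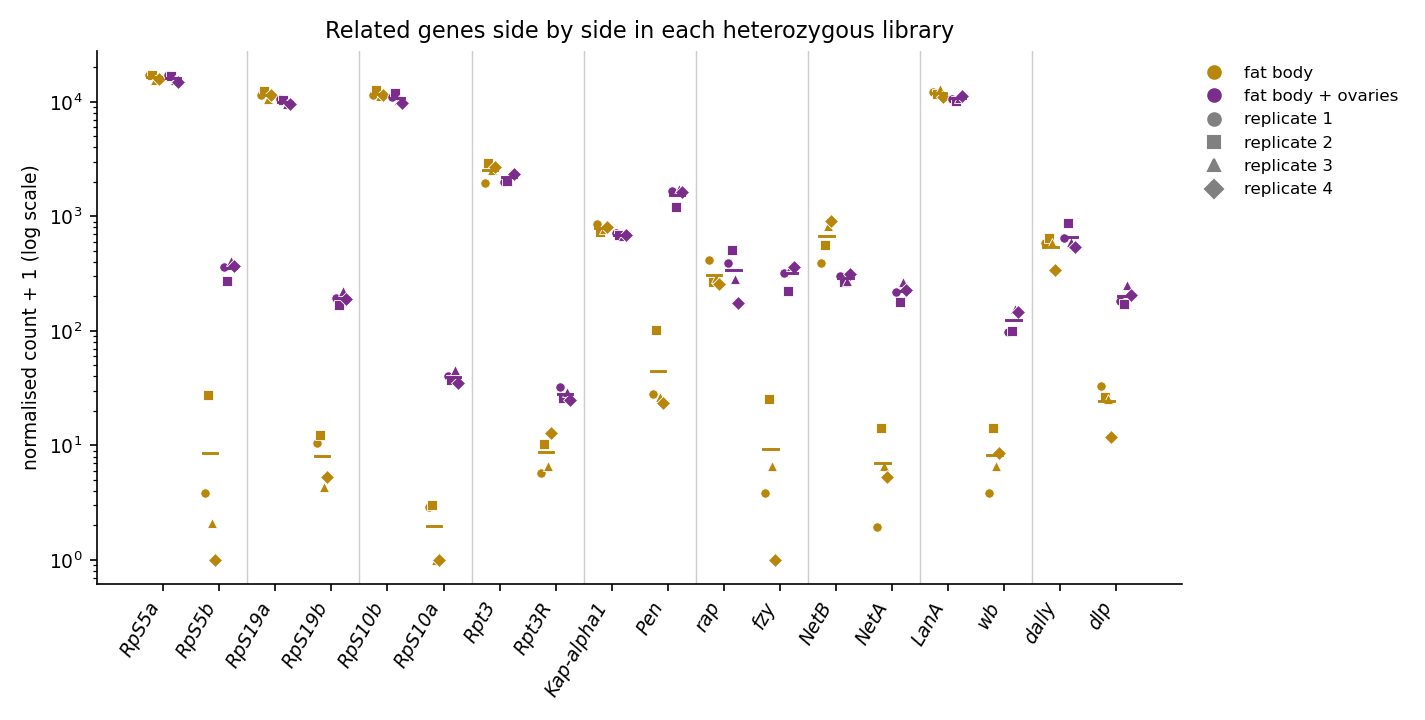
Normalised counts plus 1, on a log scale, of 9 pairs of related genes in each heterozygous library (symbols stand for replicates, short lines for group means), with the copy that the fat body reads on the left of each pair. Counts are not per length, so heights are to be compared within a gene; the right-hand gene is higher with ovaries in all 9 pairs without overlap, while the left-hand gene is called higher in none.

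Somatic cells of the terminal filament and cap were visible through their regulators and ligands. 12 of 20 kept genes of that list were called higher and 1 lower (median 2.82), beside 19.6% and 13.6% of all genes. Of the higher ones 7 had a fat body mean under 10. bab2, a BTB transcription factor needed for terminal filament formation (arm 3L, 1140429 to 1177276), had 5.66, 70.6, 6.68 and 6.45 counts in fat body and 1270.2, 982, 1334 and 1274 with ovaries, a difference of 6.55 ± 0.70 (SE, limma adjusted p = 0.000198). en, the homeodomain factor of terminal filament and cap cells, had 0.943, 2.05, 0 and 1.07 counts and 35.2, 13.8, 27.4 and 30.3 with ovaries, a difference of 3.81 ± 0.49 (SE, limma adjusted p = 0.000559). hh, the secreted ligand that those cells make, had 1.89, 8.19, 3.34 and 3.22 counts and 78.4, 54.1, 88.0 and 97.3 with ovaries, a difference of 4.07 ± 0.38 (SE, limma adjusted p = 0.000107). All 3 were lowest in replicate 2 within the group with ovaries, and neither group overlapped the other. The 7 members that were not called include dpp, dally and the cytoskeletal genes tsr, zip and sqh. dpp, the niche BMP ligand, had 25.5, 17.4, 35.7 and 40.8 counts in fat body and 19.1, 17.2, 21.6 and 50.5 with ovaries, and the groups overlapped (difference -0.20 ± 0.39).

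Of 18 kept genes of other ovarian somatic cells, 11 were called higher and 2 lower (median 1.85), beside 19.6% and 13.6% of all genes. A fat body mean under 10 was found for 4 of the higher ones. tj, the Maf factor of intermingled cells, had 0, 13.3, 4.46 and 1.07 counts in fat body and 256, 180.5, 289 and 276 with ovaries, a difference of 6.12 ± 0.72 (SE, limma adjusted p = 0.00033). Sox100B, a Sox factor first described in the embryonic gonad, had 1.89, 3.07, 0 and 1.07 counts in fat body and 61.3, 49.8, 88.9 and 85.4 with ovaries, a difference of 4.99 ± 0.46 (SE, limma adjusted p = 0.000106). slbo, the C/EBP factor of migrating border cells in the adult ovary, went the other way: it had 25.5, 55.3, 24.5 and 31.2 counts in fat body and 7.04, 11.2, 0 and 6.43 with ovaries, a difference of -2.68 ± 0.74 (SE, limma adjusted p = 0.0243). eya, a follicle cell regulator, had 101, 187, 243 and 150.4 counts in fat body and 189, 119, 114.6 and 79.0 with ovaries, with overlapping groups (difference -0.44 ± 0.32, not called).

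The signalling lists held called genes in both directions, to be read beside 19.6% of all genes called higher and 13.6% lower. With equal totals these shares were 47.1% and 1.31%. The Hedgehog, Wnt and Notch lists had 2 lower genes each with all 8 libraries, near the 13.6% of all genes. With single libraries left out these counts ran from 0 to 3, from 1 to 6 and from 1 to 4. In the Hedgehog pathway, 8 of 22 kept genes were called higher and 2 lower, and with equal totals 17 and 0. Besides the ligand, both co-receptors were called: boi had 20.8, 21.5, 6.68 and 9.67 counts in fat body and 179, 136, 229 and 249 with ovaries (difference 3.78 ± 0.38), and ihog had 84.0, 108, 69.1 and 102 counts in fat body and 243, 212, 281 and 267 with ovaries (difference 1.47 ± 0.16). The limma adjusted p were 0.000145 for boi and 0.000233 for ihog. The transcription factor ci, with 1156, 733, 826 and 951 counts in fat body and 1415, 1218, 1237 and 1398 with ovaries, rose by 0.54 ± 0.14 (limma adjusted p = 0.0178). The transducer smo (303, 203, 256 and 239 counts in fat body and 303, 279, 322 and 305 with ovaries) and the transporter disp (316, 308, 379.9 and 387 counts in fat body and 309, 309, 371 and 384 with ovaries) had overlapping groups and were not called.

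In the Wnt pathway 12 of 25 kept genes were called higher and 2 lower, beside 19.6% and 13.6% of all genes. With equal totals the counts were 17 and 0, beside 47.1% and 1.31%. Wnt2, a ligand known from the male gonad, had no read in any fat body library and 33.2, 16.3, 19.9 and 16.5 counts with ovaries. That is at least 27.6-fold higher against 3 reads over the 4 fat body libraries. Wnt5, a ligand of the Ryk receptors, had 8.49, 21.5, 5.57 and 5.37 counts in fat body and 127, 119, 162 and 151 with ovaries (difference 3.84 ± 0.39). Its receptor drl had 0.943, 6.14, 2.23 and 2.15 counts in fat body and 93.5, 49.0, 81.4 and 69.8 with ovaries (difference 4.39 ± 0.42), and the co-receptor otk had 3.77, 10.2, 1.11 and 3.22 counts in fat body and 327, 254, 413 and 368 with ovaries (difference 6.17 ± 0.45). wls, which carries Wnt proteins to the surface, had 64.1, 64.5, 67.96 and 70.9 counts in fat body and 279.6, 235, 299.8 and 287 with ovaries (difference 2.02 ± 0.11). All 4 were past the threshold, with limma adjusted p between 2.26e-05 and 0.000149. The Frizzled receptors parted: fz had 29.2, 22.5, 33.4 and 17.2 counts in fat body and 83.5, 74.8, 99.6 and 110.2 with ovaries (difference 1.83 ± 0.23 SE, limma adjusted p = 0.000465), while fz2 had 3920.4, 5250.3, 6124 and 6133 counts in fat body and 3259, 3707, 3319.9 and 3808 with ovaries (difference -0.58 ± 0.15 SE, limma adjusted p = 0.0159; -0.20 and not called with equal totals). The destruction complex genes Apc, Axn and sgg were not called.

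In the Notch pathway 10 of 21 kept genes were called higher and 2 lower, beside 19.6% and 13.6% of all genes. With equal totals the counts were 15 and 0, beside 47.1% and 1.31%. The receptor gene N had 22.6, 55.3, 16.7 and 6.45 counts in fat body and 580.3, 417, 668 and 660.3 with ovaries, a difference of 4.81 ± 0.52 (SE, limma adjusted p = 0.000225). The ligand Dl had 0, 10.2, 0 and 0 counts in fat body and 128, 120.3, 134 and 141 with ovaries, a difference of 6.16 ± 0.76 (SE, limma adjusted p = 0.000411). Its fat body reads came from replicate 2 alone. The ligand Ser, with 66.0, 141, 89.1 and 60.2 counts in fat body, rose to 274, 214, 252 and 229.6 with ovaries (difference 1.51 ± 0.25 SE, limma adjusted p = 0.00211). Of the target genes, E(spl)m3-HLH had 0, 4.09, 0 and 1.07 counts in fat body and 101, 85.9, 117 and 96.4 with ovaries (difference 5.80 ± 0.52), and E(spl)mbeta-HLH had 0.943, 1.02, 1.11 and 2.15 counts in fat body and 47.3, 34.4, 56.5 and 45.0 with ovaries (difference 4.35 ± 0.32). The limma adjusted p were 9.60e-05 and 4.72e-05. Su(H), the DNA-binding effector, and its partners H and mam were not called.

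The FGF genes, gathered after their values were seen, included one ligand with a large difference. ths, a ligand of the receptor Heartless, had 3.77, 15.3, 0 and 3.22 counts in fat body and 214, 189, 239 and 248 with ovaries, a difference of 5.71 ± 0.70 (SE, limma adjusted p = 0.000427). pyr, the other ligand of that receptor, had 141, 187, 160.4 and 139 counts in fat body and 203, 205.4, 198 and 203 with ovaries, a difference of 0.38 ± 0.11 (SE, limma adjusted p = 0.0302). The receptor gene htl had 41.5, 12.3, 8.91 and 6.45 counts in fat body and 113, 84.2, 125 and 105 with ovaries (difference 2.90 ± 0.49 SE, limma adjusted p = 0.00229), and stumps, its adaptor, had 28.3, 56.3, 30.1 and 35.5 counts in fat body and 508, 437, 745 and 653 with ovaries (difference 3.95 ± 0.24 SE, limma adjusted p = 3.15e-05). btl, the receptor of the tracheal branch of FGF signalling, had 50.9, 82.9, 76.9 and 63.4 counts in fat body and 25.1, 17.2, 44.8 and 36.7 with ovaries and was called lower (difference -1.18 ± 0.30 SE, limma adjusted p = 0.0175).

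In the BMP and Activin list 5 of 26 kept genes were called higher and 6 lower, beside 19.6% and 13.6% of all genes, with 11 and 2 at equal totals. brk, the repressor of BMP target genes, had 69.8, 123, 160.4 and 185 counts in fat body and 339.9, 275, 328 and 372 with ovaries, a difference of 1.36 ± 0.28 (SE, limma adjusted p = 0.00597). sog, a secreted BMP antagonist, had 299, 307, 296 and 226 counts in fat body and 90.5, 176, 140.3 and 124 with ovaries, a difference of -1.11 ± 0.20 (SE, limma adjusted p = 0.00332). The ligand gbb had 531, 647, 663 and 663 counts in fat body and 635, 646, 654 and 667 with ovaries, with overlapping groups. In the EGF receptor pathway 7 of 24 kept genes were called higher and 1 lower, with 15 and 0 at equal totals. The ligand vn had 6.60, 8.19, 4.46 and 3.22 counts in fat body and 52.3, 41.3, 68.1 and 55.1 with ovaries (difference 3.10 ± 0.31 SE, limma adjusted p = 0.000139), while the ligand spi had 907, 747, 928 and 1047 counts in fat body and 1100.3, 989, 989 and 928 with ovaries and was not called. Egfr, the receptor gene, was called lower (3179, 3065, 3154 and 3495 counts in fat body and 2218, 2543, 2379.9 and 2506 with ovaries, difference -0.42 ± 0.07 SE, limma adjusted p = 0.00316), with a difference of -0.03 at equal totals. In the insulin list, Sdr, a secreted decoy of the insulin receptor, had 0.943, 1.02, 1.11 and 0 counts in fat body and 42.2, 28.4, 42.3 and 36.7 with ovaries, a difference of 4.48 ± 0.39 (SE, limma adjusted p = 8.58e-05). It was 1 of 2 members called higher of 23 kept, beside 3 lower ones, a count that was 0 at equal totals or without fat body replicate 3 or replicate 1 or 3 with ovaries, 1 without fat body replicate 4, and 5 without fat body replicate 1 or replicate 2 with ovaries.

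In the lists of adhesion and of guidance genes the share called higher was above the 19.6% of all kept genes, but related members differed. Of all kept genes 13.6% were called lower. With equal totals 23 of 30 adhesion genes and 15 of 28 guidance genes were called higher, beside 47.1% of all genes. The guidance share was then near that of all genes. Of 30 kept genes of adherens junctions and polarity, 16 were called higher and 1 lower, the latter 0 at equal totals. ds, an atypical cadherin, had 10.4, 17.4, 3.34 and 11.8 counts in fat body and 392.2, 261, 439 and 485 with ovaries (difference 5.21 ± 0.42 SE, limma adjusted p = 6.30e-05). Its binding partner ft had 21.7, 19.4, 18.9 and 19.3 counts in fat body and 23.1, 17.2, 20.8 and 22.96 with ovaries and was not called. fj, the Golgi kinase that acts on both, had 2.83, 3.07, 3.34 and 1.07 counts in fat body and 60.3, 61.9, 83.9 and 59.7 with ovaries (difference 4.28 ± 0.31 SE, limma adjusted p = 4.54e-05). CadN, the neural cadherin, had 46.2, 33.8, 14.5 and 25.8 counts in fat body and 464, 359, 528 and 477 with ovaries (difference 3.98 ± 0.31 SE, limma adjusted p = 5.78e-05), and shg, the epithelial cadherin, had 1125, 3504, 2704 and 2861 counts in fat body and 1458, 1574, 2349 and 2535 with ovaries, with overlapping groups. In the list of guidance genes and receptors with leucine-rich repeats, 11 of 28 kept members were called higher and 6 lower, the latter count being 3 without fat body replicate 3 or 4 or replicate 1 or 3 with ovaries, and 2 at equal totals. NetA, a secreted guidance cue, had 0.943, 13.3, 5.57 and 4.30 counts in fat body and 216, 176, 265 and 225 with ovaries (difference 5.30 ± 0.52 SE, limma adjusted p = 0.000138). NetB, its neighbour on the X chromosome, was lower in every library with ovaries, with 389, 567, 831 and 908 counts in fat body and 299.7, 266, 272 and 314 with ovaries (difference -1.15 ± 0.25 SE, limma adjusted p = 0.00787). sli, the ligand of Robo receptors, had 35.8, 98.2, 36.8 and 31.2 counts in fat body and 608, 452, 702 and 707 with ovaries (difference 3.73 ± 0.34 SE, limma adjusted p = 0.000106).

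The basement membrane list held called genes in both directions. Of 15 kept members, 3 were called higher, close to the 19.6% of all genes, and 7 lower, beside 13.6% of all genes. The lower count was 1 at equal totals, beside 1.31% of all genes. It was 3 without fat body replicate 4 or replicate 3 with ovaries, and 4 without replicate 1 with ovaries. wb, a laminin alpha chain, had 2.83, 13.3, 5.57 and 7.52 counts in fat body and 96.5, 98.8, 153 and 144 with ovaries (difference 4.03 ± 0.39 SE, limma adjusted p = 0.000123). The other higher genes were Ppn and Pxn, a matrix peroxidase that is also on the hemocyte list. LanA, the other alpha chain, had 12161, 11656, 13009 and 11081 counts in fat body and 10570.2, 10221, 10909 and 11291 with ovaries and was not called, nor were the beta and gamma chains. Ppn, a secreted matrix glycoprotein, had 63.2, 64.5, 17.8 and 6.45 counts in fat body and 994, 787, 1291 and 1268 with ovaries (difference 5.26 ± 0.65 SE, limma adjusted p = 0.000427), and fat body replicates 1 and 2 were the higher ones. The collagen IV genes vkg and Cg25C were called lower, by 0.75 and 0.63, and BM-40-SPARC by 0.74, with 6502, 6461, 6413 and 7577 counts in fat body and 3863, 4334, 3671 and 4316 with ovaries (difference -0.74 ± 0.09 SE, limma adjusted p = 0.000389). dlp, a glypican that spreads Hedgehog and Wnt ligands, had 32.1, 25.6, 24.5 and 10.7 counts in fat body and 180.0, 172, 251 and 203 with ovaries (difference 3.14 ± 0.31 SE, limma adjusted p = 0.000133), beside its relative dally with 589.6, 648, 583 and 338 counts in fat body and 644, 866, 595 and 543 with ovaries (not called).

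**Figure D4:**
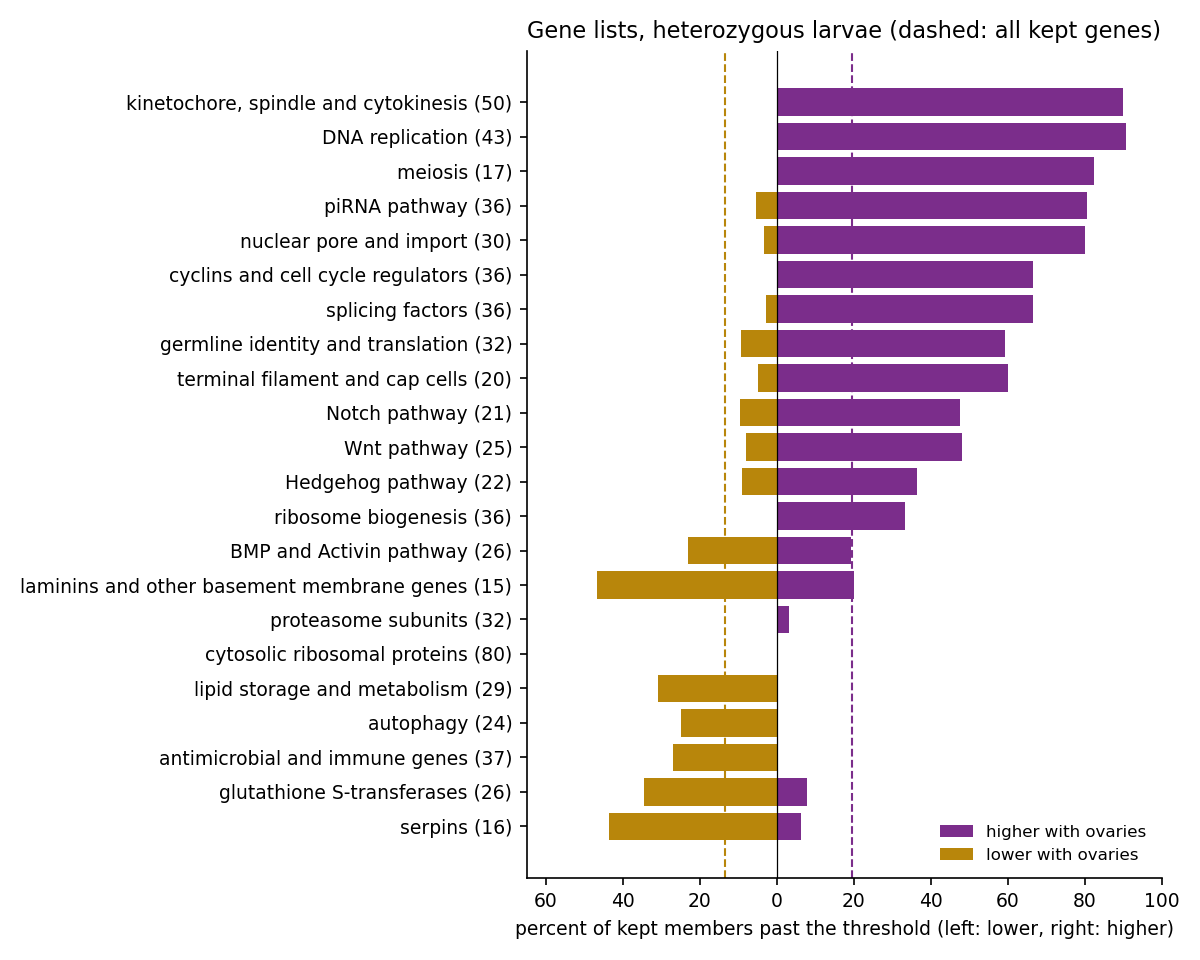
Percent of the kept members of 22 gene lists (number in brackets) that were called higher (right) or lower (left) with ovaries, with the share of all kept genes as dashed lines at 19.6% and 13.6%. Bars for kinetochore, replication, meiosis, piRNA and nuclear pore genes reach 80% or more on the right, and those for lipid, autophagy, immune, glutathione transferase and serpin genes lie mainly on the left.

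Most genes of the cell division lists were called higher. Their counts, with those of replication and cell cycle genes below, are to be read beside 19.6% of all genes called higher and 13.6% lower. Of 50 kept genes of kinetochore, spindle and cytokinesis, 45 were called higher and none lower, with a median of 3.56; 22 of the higher ones had a fat body mean under 10. Klp61F, the kinesin that separates spindle poles, had 0.943, 17.4, 0 and 0 counts in fat body and 401, 303, 467 and 388 with ovaries (difference 7.30 ± 0.85 SE, limma adjusted p = 0.000304). asp, a spindle pole protein, had 2.83, 23.5, 0 and 0 counts in fat body and 332, 288, 403 and 354 with ovaries (difference 6.78 ± 0.92 SE, limma adjusted p = 0.000723). cid, the histone H3 of centromeres, had 0.943, 4.09, 0 and 0 counts in fat body and 24.1, 18.9, 20.8 and 23.9 with ovaries (difference 3.69 ± 0.58 SE, limma adjusted p = 0.00173). cnn, a centrosome scaffold gene, is among the 5 that were not called: its counts were 799.9, 1665, 1330.2 and 1525 in fat body and 655, 718, 1055 and 1283 with ovaries, with overlapping groups.

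Of 43 kept replication genes 39 were called higher and none lower, with a median of 2.31; 1 of the higher ones had a fat body mean under 10. For 34 of these genes, at least 1 log2 unit higher and with a mean of at least 50 with ovaries, the level is given as a percentage of that mean. The median was 28.5%, 17.7%, 10.5% and 10.3% in fat body replicates 1 to 4. Which cells gave these reads was not tested. PCNA, the sliding clamp, had 59.4, 44.0, 10.03 and 6.45 counts in fat body and 649.7, 489.9, 678 and 636 with ovaries (difference 4.81 ± 0.63 SE, limma adjusted p = 0.000585). Mcm5, of the replicative helicase, had 27.4, 27.6, 6.68 and 5.37 counts in fat body and 477, 325, 492 and 465 with ovaries (difference 4.94 ± 0.51 SE, limma adjusted p = 0.000173), and Orc1, of the origin complex, had 47.2, 19.4, 3.34 and 8.60 counts in fat body and 106, 99.7, 119 and 122 with ovaries (difference 2.98 ± 0.63 SE, limma adjusted p = 0.00775). For all 3, fat body replicates 1 and 2 lay above replicates 3 and 4. Cdc6, which loads the helicase, had 198, 114, 120.3 and 119 counts in fat body and 151, 115.2, 168 and 163 with ovaries and was not called.

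Of 36 kept cyclins and cell cycle regulators, 24 were called higher, 7 of them with a fat body mean under 10, and none lower. The mitotic cyclin CycB had 12.3, 35.8, 6.68 and 1.07 counts in fat body and 617, 463, 804 and 658 with ovaries (difference 6.06 ± 0.74 SE, limma adjusted p = 0.000395). cdc2, which encodes the mitotic kinase Cdk1, had 3.77, 19.4, 4.46 and 4.30 counts in fat body and 339.9, 247, 352 and 328 with ovaries (difference 5.43 ± 0.44 SE, limma adjusted p = 6.59e-05). CycE, which drives S phase in mitotic and endoreplicating cells, had 53.8, 58.3, 52.4 and 41.9 counts in fat body and 215, 163, 216 and 216 with ovaries (difference 1.95 ± 0.15 SE, limma adjusted p = 4.88e-05). CycD (306, 292, 338 and 283 counts in fat body and 337, 334, 319.7 and 304 with ovaries) and E2f2 (244, 295, 225 and 218.1 counts in fat body and 189, 276, 224 and 246 with ovaries) were not called, and their groups overlapped. BigH1, the linker histone of early germ cells and embryos, had 0, 3.07, 0 and 0 counts in fat body and 44.3, 26.6, 59.0 and 46.8 with ovaries (difference 4.94 ± 0.56 SE, limma adjusted p = 0.000272). Lam, the B-type lamin, had 151, 185, 98.0 and 83.8 counts in fat body and 1219, 893, 1328 and 1300.4 with ovaries (difference 3.24 ± 0.25 SE, limma adjusted p = 5.78e-05).

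Genes of nuclear transport, RNA processing and ribosome assembly were counted next, beside 19.6% of all genes called higher. 24 of 30 kept nuclear pore and import genes were called higher and 1 lower (median 0.70). Of 36 kept splicing genes 24 were called higher, at a median of 0.38, and 15 without replicate 3 with ovaries. x16, a serine- and arginine-rich splicing factor, had 136, 94.1, 120.3 and 132 counts in fat body and 374, 273, 361 and 361 with ovaries (difference 1.501 ± 0.15 SE, limma adjusted p = 0.000147). Ribosome biogenesis turned on fat body replicate 1: 12 of 36 genes were called higher with all libraries and 30 without that library, against 6 or 7 without fat body replicate 3 or 4, or replicate 1, 3 or 4 with ovaries. Nop60B, a nucleolar pseudouridine synthase gene, had 1189, 121, 228 and 237 counts in fat body and 1153, 743, 1133 and 1246 with ovaries, so that fat body replicate 1 lay within the other group. Its difference was 1.81 ± 0.60 (SE, limma adjusted p = 0.0468), and 2.48 without that replicate. Of the mitochondrial ribosomal protein genes 12 of 71 were called higher, a share below that of all genes, 30 without fat body replicate 1, and 6 or 7 without any other library except replicate 2 with ovaries. With equal totals 30 and 57 of the 2 lists were called higher.

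Among Hox genes and cofactors, 4 of 9 kept members were called higher and 2 lower, beside 19.6% and 13.6% of all genes. abd-A, the abdominal Hox gene, had 2982, 3032, 1627 and 1830.0 counts in fat body and 4441, 3910.3, 4613 and 5596 with ovaries (difference 1.01 ± 0.22 SE, limma adjusted p = 0.0086). Abd-B, the Hox gene of the posterior end, had 253, 251, 183 and 128 counts in fat body and 49.3, 153, 73.9 and 52.3 with ovaries and was called lower (difference -1.40 ± 0.37 SE, limma adjusted p = 0.0205), although the groups overlapped. caup, an Iroquois homeodomain gene, had 1.89, 4.09, 1.11 and 0 counts in fat body and 74.4, 50.7, 62.3 and 65.2 with ovaries (difference 4.75 ± 0.48 SE, limma adjusted p = 0.000154). Of 21 kept genes of sex determination and dosage compensation, 7 were called higher, beside the same 19.6% of all genes. The count was 4 without fat body replicate 3 or any of replicates 2, 3 or 4 with ovaries. dsx, the last gene of the sex determination cascade, had 399, 264, 305 and 348 counts in fat body and 652, 486, 507 and 594 with ovaries (difference 0.77 ± 0.15 SE, limma adjusted p = 0.00455). The upstream switch Sxl had 1616, 1743, 2047 and 1700.0 counts in fat body and 1942, 1724, 2005 and 1953 with ovaries and was not called.

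Among lower genes, detoxification genes of one cluster stood out by size. Of 26 kept genes on the glutathione transferase list, 9 were called lower and 2 higher, beside 13.6% and 19.6% of all genes. These counts do not include GstD6, which ranked first among the named lower genes but was not counted on the list. The lower count was 3 at equal totals, beside 1.31% of all genes, and 5 without fat body replicate 4 or replicate 3 with ovaries. GstD9 (arm 3R, 12366163 to 12367564) had 847, 409, 682 and 1019.8 counts in fat body and 227, 85.9, 87.2 and 227 with ovaries, a difference of -2.31 ± 0.41 (SE, limma adjusted p = 0.00316) and of -1.92 at equal totals. GstD4 (arm 3R, 12374100 to 12374824) had 326, 144, 172 and 185 counts in fat body and 70.4, 52.4, 51.5 and 51.4 with ovaries, a difference of -1.80 ± 0.24 (SE, limma adjusted p = 0.000736) and of -1.41 at equal totals. GstD10 had 4040.2, 1428, 1726 and 2999 counts in fat body and 1135, 397, 505 and 1180.1 with ovaries (difference -1.70 ± 0.44 SE, limma adjusted p = 0.0194), and GstD1 had 16428, 9842, 17173 and 16538 counts in fat body and 8434, 4901, 7934 and 8352 with ovaries (difference -1.02 ± 0.23 SE, limma adjusted p = 0.0105). The groups did not overlap for any of the 4, and replicates 2 and 3 with ovaries were at the low end of their group for GstD9 and GstD10. GstD genes are related neighbours on arm 3R. How the authors assigned any shared reads is not stated here, so the division among them is uncertain.

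2 esterase genes that lie side by side followed the same direction. alpha-Est8 had 2231, 1048, 1843 and 3374 counts in fat body and 845, 455, 291 and 937 with ovaries, a difference of -1.78 ± 0.44 (SE, limma adjusted p = 0.0158). alpha-Est7, known from blowflies for insecticide resistance, had 4976, 7190.3, 9092 and 12778 counts in fat body and 2266, 3041, 2500.3 and 4511 with ovaries, a difference of -1.43 ± 0.30 (SE, limma adjusted p = 0.00775). regucalcin, a calcium-binding protein gene, had 4848, 3361, 10089 and 9324 counts in fat body and 2719, 2736, 1410.0 and 1681 with ovaries, a difference of -1.61 ± 0.38 (SE, limma adjusted p = 0.0126), and the 2 groups came closest in fat body replicates 1 and 2. Ect3, a lysosomal beta-galactosidase, had 1001, 822, 1202 and 1372 counts in fat body and 388, 519, 269 and 385 with ovaries, a difference of -1.503 ± 0.22 (SE, limma adjusted p = 0.00102). The cytochrome P450 genes did not follow: 1 of 30 kept ones was called lower and none higher, beside 13.6% and 19.6% of all genes. The lower count was 4 in DESeq2, 6 without fat body replicate 2, 3 without replicate 2 with ovaries and 2 without replicate 1 with ovaries.

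The largest lower differences of any gene were in genes without a name. CG34296 (arm 3R, 29722538 to 29723013) had 174, 1817, 227 and 364 counts in fat body and 8.05, 12.9, 44.0 and 35.8 with ovaries, a difference of -4.24 ± 0.78 (SE, limma adjusted p = 0.0039) that was -3.51 without fat body replicate 2. CG8850 (arm 2R, 12298747 to 12302240) had 160.4, 296, 1186 and 1009 counts in fat body and 32.2, 50.7, 54.8 and 30.3 with ovaries, a difference of -3.56 ± 0.61 (SE, limma adjusted p = 0.0026). CG17739, arm 2R, 12306528 to 12310412, lies close to it and had 96.2, 269, 732 and 988 counts in fat body and 37.2, 25.8, 58.1 and 38.6 with ovaries, a difference of -3.24 ± 0.66 (SE, limma adjusted p = 0.00647). In the last 2, fat body replicates 3 and 4 lay above replicates 1 and 2, and every library with ovaries lay below all of them.

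Of the 37 kept immune genes 10 were called lower and none higher, beside 13.6% and 19.6% of all genes. The lower count was 3 at equal totals, beside 1.31% of all genes, and 5 with the spread of all 16 libraries. It was 3 without fat body replicate 3 or 4 or replicate 1 with ovaries, and 5 without replicate 3 with ovaries. The called members included receptors and transducers, and TotA, a secreted stress peptide, at -0.60. pirk, an inhibitor of the Imd pathway, had 92.4, 114, 362 and 158 counts in fat body and 28.2, 25.8, 72.2 and 65.2 with ovaries, a difference of -1.84 ± 0.49 (SE, limma adjusted p = 0.0205). PGRP-LC, the receptor of that pathway, had 624, 951, 905 and 1029 counts in fat body and 285, 459, 467 and 526 with ovaries, a difference of -1.02 ± 0.22 (SE, limma adjusted p = 0.00775). imd had 543, 845, 876 and 846 counts in fat body and 498, 486, 549 and 529.9 with ovaries, with groups that overlapped slightly (difference -0.57 ± 0.15 SE, limma adjusted p = 0.0213). The antibacterial peptide gene AttA had 5.66, 212, 25.6 and 44.1 counts in fat body and 1.01, 15.5, 9.13 and 9.18 with ovaries, and its difference of -2.24 ± 1.04 was not called. The antifungal peptide gene Drs had 8759, 14042, 18599 and 16135 counts in fat body and 16380.3, 8156, 19568 and 19128 with ovaries, with overlapping groups.

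Most storage and lipid genes of the fat body were not called, and the lower calls depended on the scaling. Of 16 kept storage genes 4 were called lower and none higher, beside 13.6% of all genes lower, against 0 lower at equal totals, 7 in edgeR, 8 in DESeq2, and 1 lower without fat body replicate 3 or 4 or replicate 1 or 3 with ovaries. Fbp1, the receptor for larval serum proteins, had 4781942, 6505187, 6361934 and 6054539.6 counts in fat body and 3866762, 4360707, 4279954 and 4428467 with ovaries, and its difference of -0.48 ± 0.33 was not called. Of 29 kept lipid genes 9 were called lower, beside the same 13.6% of all genes. At equal totals 2 were lower and 4 higher, beside 1.31% and 47.1% of all genes. Jabba, a lipid droplet protein that also binds histones, had 8439.8, 10419.7, 11642 and 14104 counts in fat body and 4920.0, 6526, 5308 and 6238 with ovaries, a difference of -0.94 ± 0.16 (SE, limma adjusted p = 0.0027) and of -0.55 at equal totals. bmm, the adipose triglyceride lipase, had 964, 909, 1241 and 1071 counts in fat body and 725, 559, 617 and 736 with ovaries, a difference of -0.67 ± 0.13 (SE, limma adjusted p = 0.00462). Lsd-2, a perilipin, had 17920.1, 9373, 11702 and 13642 counts in fat body and 8780.0, 6611, 6706 and 8424 with ovaries (difference -0.76 ± 0.20 SE, limma adjusted p = 0.0184), while its relative Lsd-1 had 52715, 74400.1, 68584 and 58725 counts in fat body and 63913, 72045, 63805 and 49493 with ovaries and was not called.

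Serpins, the inhibitors of serine proteases in the blood, were called lower in 7 of 16 cases and higher in 1, beside 13.6% and 19.6% of all genes. The lower count was 0 at equal totals, beside 1.31% of all genes, and 4 without replicate 3 with ovaries. Autophagy genes were called lower in 6 of 24 cases, beside the same 13.6% of all genes. The count was 0 at equal totals and 13 without fat body replicate 1. In the list of the ecdysone response, 5 of 25 kept genes were called higher and 3 lower, close to the 19.6% and 13.6% of all genes, the lower count being 0 at equal totals, 9 without fat body replicate 1 and 1 without any other fat body library. ImpE1, an ecdysone-induced membrane protein of imaginal discs, had 0.943, 9.21, 3.34 and 0 counts in fat body and 94.5, 82.5, 115.4 and 124 with ovaries, a difference of 5.09 ± 0.64 (SE, limma adjusted p = 0.000479). The receptor gene EcR had 2103, 1103, 1803 and 1509 counts in fat body and 1759, 1976, 1171 and 1072 with ovaries, with overlapping groups. Eip93F, which marks late fat body remodelling, spread from 153 to 933 counts in fat body and from 117 to 737 with ovaries, and its difference of -1.04 ± 0.71 was not called.

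Markers of other organs that dissection can carry along were counted in the same way, to be read beside 19.6% of all genes called higher and 13.6% lower. Of 11 salivary glue genes 1 was kept and not called. In hemocytes 1 of 17 kept markers was called higher and 4 lower, and of the defining ones Hml had 265, 140.2, 156 and 63.4 counts in fat body and 242, 296, 70.6 and 57.9 with ovaries. In muscle 1 of 14 was higher and 4 lower, with Mhc at 19.8, 17.4, 29.0 and 16.1 counts in fat body and 24.1, 27.5, 17.4 and 11.9 with ovaries. The lower counts of hemocytes and muscle were 0 and 1 at equal totals. For gut 3 of 24 listed markers were kept and 1 was lower. For trachea 1 of 9 was higher and 1 lower, for neurons and glia 2 of 9 higher and 1 lower, and for cuticle 2 of 9 higher. For imaginal discs 2 of 5 were higher and 1 lower, and for testis 2 of 5 higher. For Malpighian tubules 1 of 6 was higher, for nephrocytes 1 of 5 lower and for oenocytes 2 of 5 lower. The part of such tissues in single differences was not tested.

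Single markers of those lists were nonetheless high with ovaries. elav, the general marker of neurons, had 20.8, 19.4, 36.8 and 29.0 counts in fat body and 73.4, 57.6, 76.4 and 101 with ovaries (difference 1.52 ± 0.25 SE, limma adjusted p = 0.00208). Best2, a bestrophin chloride channel listed for Malpighian tubules, had 3.77, 1.02, 1.11 and 0 counts in fat body and 43.2, 40.4, 64.8 and 56.0 with ovaries (difference 4.59 ± 0.48 SE, limma adjusted p = 0.00019). obst-A, a chitin-binding protein listed for cuticle, had 0.943, 14.3, 4.46 and 4.30 counts in fat body and 77.4, 41.3, 165 and 88.2 with ovaries (difference 3.95 ± 0.63 SE, limma adjusted p = 0.00178). All 4 libraries with ovaries were above all 4 fat body libraries for these 3 genes.

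The fat body libraries themselves differed in the level of genes that were higher with ovaries, which is a description since the genes were chosen on the same libraries. For the genes called at least 1 log2 unit higher with a mean of at least 50 with ovaries, each library's level was taken as a percentage of the mean with ovaries. Over 13 such germline genes the median was 2.70%, 7.15%, 1.61% and 1.56% in fat body replicates 1 to 4. Over 10 genes of terminal filament and cap cells it was 3.63%, 8.42%, 1.92% and 3.70%. Replicate 2 was the highest in both. Over 9 genes of other ovarian somatic cells replicate 1 was the highest, at 10.1% beside 7.39% in replicate 2, and over all 641 such genes the medians were 19.9%, 20.2%, 13.98% and 14.38%. Over 34 replication genes the medians were 28.5%, 17.7%, 10.5% and 10.3%, and over 9 genes of ribosome biogenesis 78.5%, 17.8%, 30.1% and 32.5%. For these 2 classes replicate 1 was the highest. With ovaries, replicate 2 lay at 77.9% for the germline genes and at 81.6% for replication, and replicate 3 at 114% and 113%. Leaving out fat body replicate 2 gave 850 genes higher by 1 log2 unit or more, beside 862.

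**Figure D5:**
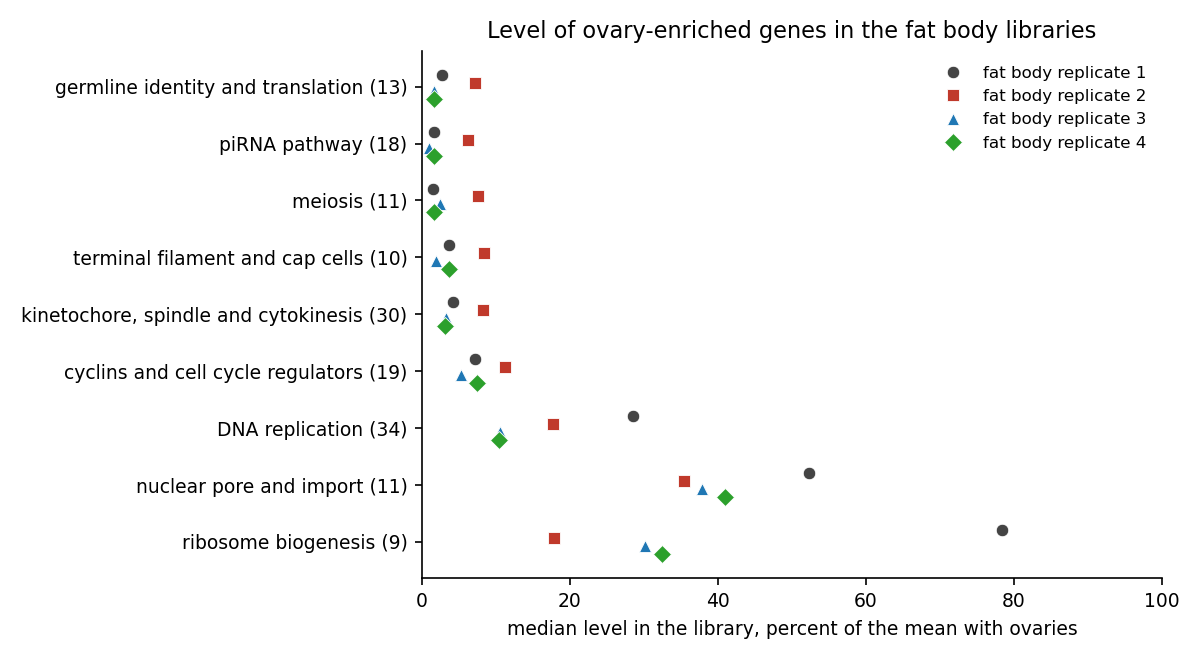
Median level of ovary-enriched genes in each heterozygous fat body library, as a percentage of the mean with ovaries, for 9 gene lists (number of genes in brackets, one symbol per library). Replicate 2 (squares) is highest for germline, piRNA, meiosis, terminal filament and mitotic genes at 6.28% to 11.2%, and replicate 1 (circles) is highest for replication, nuclear pore and ribosome biogenesis genes at 28.5% to 78.5%.

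The same difference was set against that of the larvae labelled homozygous, over all 16 libraries and 7824 genes. The full genotype of those larvae is not given here. Homozygotes for the allele would lack the TM3-GFP balancer that the heterozygotes carry. The allele and the balancer therefore cannot be told apart in what follows. The interaction in limma, the difference in homozygotes minus that in heterozygotes, passed the threshold for 4 genes (0.0511%), with 182 at an unadjusted p under 0.05, and edgeR gave 4, of which 3 were shared. Spc105R, a kinetochore scaffold, had 30.2, 25.6, 24.5 and 17.2 counts in heterozygous fat body and 200.1, 131, 210.1 and 211 with ovaries, a difference of 2.90 ± 0.22 (SE, limma adjusted p = 4.94e-05) in the heterozygous fit. Its interaction was 2.97 ± 0.46 (SE, limma adjusted p = 0.0405), and the homozygous fat body libraries held 1.21 to 7.65 counts. wb had an interaction of -3.20 ± 0.53 (SE, limma adjusted p = 0.0478): in homozygotes it had a mean of 7.34 counts in fat body and 13.6 with ovaries. edgeR gave wb an adjusted p of 0.0592, and called CG42575 instead (edgeR adjusted p = 0.0219, limma adjusted p = 0.0668), a gene named after its values were seen. hdly had 272, 253, 332 and 313 counts in fat body and 469, 424, 595 and 528 with ovaries in heterozygotes (difference 0.78 ± 0.13) and an interaction of 1.77 ± 0.28, and CR32207, a hairpin RNA gene, 20.8, 13.3, 10.03 and 8.60 counts in fat body and 41.2, 45.5, 49.8 and 55.1 with ovaries (difference 1.85 ± 0.28) and an interaction of 2.87 ± 0.45. Both had a limma adjusted p of 0.0405. The count of 4 was 0 at equal totals and in a fit blocked by replicate number. It was 7 without homozygous fat body replicate 1 or 3, 5 without homozygous fat body replicate 2, 2 without heterozygous fat body replicate 2, 1 without heterozygous fat body replicate 1 or homozygous fat body replicate 4, and 0 without any of the other libraries. The 2 tissue differences use separate libraries.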

How the data were processed

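RNA sequencing of female larval fat body with or without ovaries was available as 1 table of 16727 genes and 16 libraries, of which 8 were compared here. Per the submitters' processing notes, the tools were Trimmomatic 0.36, STAR 2.5.2b and featureCounts from Subread 1.5.0p3 on the dm6 build; for the gene annotation, the strand setting and reads that map more than once, nothing was given in the sources used here. The deposited values are a signal: read counts that the authors divided by a size factor per library. Dividing by the smallest step of each library gave whole reads for 100% of values (tolerance 1e-06). Replicates of a group differed by more than sampling noise in every pair.

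The 7794 genes whose values averaged 10 or more were tested with limma 3.58.1 (trend, R 4.3.3) on log2(value + 1), with Benjamini-Hochberg adjustment over all of them. The homozygous libraries entered only the test of the difference between genotypes. Alternatives were pseudocounts of 0.5 and 5, other filters, equal totals, a spread from 16 libraries, a replicate block, each library left out, and edgeR 4.0.16 and DESeq2 1.42.0 on the recovered reads. edgeR called 1465 genes higher and 1145 lower. The fits were tested on simulated counts with known changes.

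The comparison, gene lists and rules were chosen with earlier results of these data known, so counts over lists are descriptions and no set test was run. Named genes were, by rule, the 15 named genes with the largest difference in each direction (a mean of 50 or more in the group where they are higher, no overlap), the 5 largest of any name, the 4 called genes of smallest p in each list, dLmx1a, and genes with 0 reads in all fat body libraries. The others given values were chosen after their values were seen, as members of the same lists or as relatives of a named gene. The rule gave 211 genes, and many of them are left out. Of the 173 named genes counted here, 83 came from the rule. GstD6 and Rgk1, which ranked first among the named lower genes, are given no values. Gene positions and exon lengths come from the Ensembl annotation of the same assembly, in which 230 of the 16727 symbols were not found by symbol or synonym. Depth was 21483771 to 29741067 reads per library. Near-identical copies and overlapping or antisense genes are uncertain, since the division of their reads is not known.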

Additional observations from a re-analysis of the deposited data

Results flagged for a closer look

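For each gene given values, the gap between the highest or lowest library of a group and its nearest neighbour was divided by the range of the group and the genes named here passed Dixon's limit for 4 samples. For normally distributed values, chance puts about 1 in 20 groups past that limit. That rate need not hold for counts of a few reads. There the gap can be as small as a single read, as for Sdr and E(spl)mbeta-HLH in fat body. In fat body, replicate 2 stood above the other libraries with ratios of piwi 0.921, dec-1 0.846, dLmx1a (CG32105) 0.880, Argk 0.975, croc 0.954, drm 0.960, bin 1 and sim 0.868. The same library stood alone as highest with ovo 0.850, otu 0.867, zpg 0.898, spn-E 0.917, fs(1)Yb 1, cona 1, RpS5b 0.894 and Pen 0.938. It was also the highest for bab2 0.984, Dl 1, sli 0.916, Klp61F 0.946, asp 0.880, cdc2 0.956, BigH1 1 and CG34296 0.884. Most of these are germline, ovarian somatic or mitotic genes. Only genes given values were scanned, and many of those are of the same kinds, so this make-up is not a result about the library. Over 641 ovary-enriched genes the median level was 19.9%, 20.2%, 13.98% and 14.38% of that with ovaries in fat body replicates 1 to 4, so replicate 1 lay as high as replicate 2. CG34296, the unnamed gene with the largest lower difference, is among them although it is a gene that was lower with ovaries, with 174, 1817, 227 and 364 counts in fat body. 

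Fat body replicate 1 was the highest, apart from the rest, for zuc 1, htl 0.834, Cdc6 0.920, Nop60B 0.891, betaTub56D 0.941, T-cp1 0.873 and CG8258 0.897. With ovaries, replicate 2 was the lowest, apart from the rest, for Mcm5 0.835, CycE 0.987, x16 0.869, GstD1 0.859, Spc105R 0.861, T-cp1 0.831, CG8258 0.840 and Top2 0.882. Fat body replicate 1 was the lowest for gbb 0.876 and imd 0.908. Fat body replicate 2 was the lowest for GstD1 0.898. Fat body replicate 4 was the highest for E(spl)mbeta-HLH 0.858 and BM-40-SPARC 0.923. Fat body replicate 4 was the lowest for escl 0.911, sog 0.869 and Sdr 0.847. Replicate 1 with ovaries was the highest for GstD4 0.948. Replicate 3 with ovaries was the highest for fj 0.910. Replicate 4 with ovaries was the highest for dpp 0.868.

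The tissue difference itself differed between genotypes for 4 genes, by the interaction in limma over 16 libraries. The count was 0 with the replicate block, at equal totals, and without any 1 of 10 of the libraries. Allele and balancer chromosome cannot be told apart in this comparison. wb, the laminin alpha chain, had an interaction of -3.20 (limma adjusted p = 0.0478), the difference being 4.03 in heterozygotes and 0.83 in homozygotes. All 4 homozygous libraries with ovaries, at 16.2, 17.2, 11.7 and 9.42 counts, lay below the 4 heterozygous ones. Spc105R had an interaction of 2.97, CR32207 of 2.87 and hdly of 1.77, each with a limma adjusted p of 0.0405. For these 3 the fat body level was lower in homozygotes: the mean of Spc105R was 24.4 counts in heterozygous and 4.68 in homozygous fat body, that of CR32207 13.2 and 0.303, and that of hdly 292 and 65.6.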

How the results depend on the processing

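With equal totals 3669 genes were higher and 102 lower, 1296 and 50 of them by at least 1 log2 unit, and the differences of tud and mino turned to 0.10 and 0.0134, neither past the threshold (limma adjusted p = 0.359 and 0.931). A filter at a mean of 50 tests fewer genes (6552) and left 509 genes higher and 73 lower by at least 1 log2 unit. With 1 library left out, genes higher ranged from 1203 to 1823, genes lower from 530 to 1526, genes at least 1 log2 unit higher from 787 to 984 and those at least 1 lower from 67 to 173; the cause was not tested. The other alternatives kept these 4 counts within 1.5 times. Of 141 named genes that were called, 122 were called in the same direction under every alternative in which they were tested (genes under a mean of 50 were not tested at that filter).

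Whether the replicate numbers pair the libraries cannot be settled from so few libraries. Deviations of same-numbered libraries from their group means correlated at 0.280, -0.003, 0.036 and 0.206 for replicates 1 to 4. Replicates 1 and 4 correlated best with their own number, and replicates 2 and 3 did not. With a replicate block 1583 genes were higher and 1349 lower, 882 and 139 of them by at least 1 log2 unit. The interaction count of 4 went to 0 with the replicate block and at equal totals, and ranged from 0 to 7 with 1 library left out.

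Genes near 1 read per library are limited by depth, since 3 reads are worth 2.49 to 3.34 normalised counts. The planned search of promoters for motifs was not run, as no promoter sequence was used here.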

Other observations

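Ranked by how much normalised count per kilobase of exon the ovaries added, the list began with genes that the fat body reads too, and these were chosen after their values were seen. betaTub56D, a general beta-tubulin, had 5343, 3045, 3181 and 3125 normalised counts in fat body and 9251, 7235, 8854 and 8015 with ovaries, a difference of 1.22 ± 0.18 (SE, limma adjusted p = 0.00132). HmgD, a DNA-bending chromatin protein, had 637, 927, 902 and 1036 counts in fat body and 3358, 2645, 3764 and 3958 with ovaries (difference 1.98 ± 0.17 SE, limma adjusted p = 9.18e-05), and Df31, a nucleosome-binding protein, had 1749, 1998, 1471 and 1583 counts in fat body and 4449, 3888, 4513 and 4299 with ovaries (difference 1.34 ± 0.10 SE, limma adjusted p = 5.78e-05). They added 2496, 1301 and 1242 counts per kilobase. His2Av, the variant histone, rose by 2.20 ± 0.20, and dUTPase, which keeps uracil out of DNA, by 3.301 ± 0.38, with limma adjusted p of 0.000103 and 0.000296. 3 subunits of the CCT chaperonin, which folds tubulin and actin, stood on the same ranked list and were chosen from it after their values were seen: T-cp1 had 921, 544, 512 and 564 counts in fat body and 1599, 1184, 1683 and 1614 with ovaries (difference 1.29 ± 0.20 SE, limma adjusted p = 0.0014), Cct5 rose by 1.11 ± 0.22 and CG8258, the CCT8 subunit, by 1.28 ± 0.21. In all 3, fat body replicate 1 was the highest fat body library.

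Of 21 kept cohesin and condensin genes 15 were called higher and none lower, and of 35 chromatin genes 23 and none, beside 19.6% and 13.6% of all genes. Top2, the topoisomerase that untangles replicated chromosomes, had 429, 391, 427 and 393 counts in fat body and 2358, 1769.5, 2437 and 2435 with ovaries, a difference of 2.44 ± 0.11 (SE, limma adjusted p = 1.57e-05). Of 5 kept innexins 3 were called higher: besides zpg, Inx2, the somatic partner of zpg in the ovary, had 892, 496, 579 and 568 counts in fat body and 1364, 1185, 1324 and 1277 with ovaries (difference 1.06 ± 0.17 SE, limma adjusted p = 0.00165), and Inx3 had 957, 851, 847 and 734 counts in fat body and 1048, 1129, 1159 and 934 with ovaries (difference 0.33 ± 0.10 SE, limma adjusted p = 0.0367). In JAK/STAT signalling 4 of 9 kept genes were higher and 2 lower, the latter 1 without fat body replicate 2 or 4 or replicate 1 with ovaries and 0 without replicate 3 with ovaries. The receptor gene dome had 231, 231, 201 and 237 counts in fat body and 357, 337, 420.2 and 427 with ovaries, a difference of 0.77 ± 0.11 (SE, limma adjusted p = 0.000805).

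5 genes had no read in any heterozygous fat body library and at least 10 counts in every library with ovaries: Wnt2, CG7730, CG14036, CG31517 and CG9518. CG7730 had 23.1, 20.6, 26.6 and 28.5 counts with ovaries and was at least 31.7-fold higher, against 3 reads over the 4 fat body libraries. CG14036, with 18.1, 12.03, 23.3 and 28.5 counts, was at least 26.3-fold higher. CG31517 and CG9518 were at least 17.8-fold and 18.7-fold higher, and both lay under the filter on the mean. By chromosome arm, the share of kept genes that were at least 1 log2 unit higher was 12.3% on X, 11.99% on 2L, 9.67% on 2R, 11.1% on 3L, 10.6% on 3R and 6.25% (4 of 64) on 4.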
